A study of Homo sapiens with 12 samples.

Results

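The p53 pathway was followed through 33 of its genes, most of them direct targets of the transcription factor p53, in HPB-ALL and KOPTK1 cells, 2 human T-cell acute lymphoblastic leukemia (T-ALL) lines. The genes were taken by name, from a list chosen with earlier results of these data known. Each of the 33 matched 1 of the 58288 genes in both deposited tables. RNA was sequenced from 12 rRNA-depleted libraries, 6 per line. By the labels, 3 libraries of each line came from cells infected with a pLKO.1 lentivirus carrying a hairpin against SHQ1 (shSHQ1) and 3 from cells infected with a hairpin against GFP as control (shGFP), all kept in puromycin (2 μg/mL) for 48 h. The table columns carry only the numbers 1 to 6 for KOPTK1 and 7 to 12 for HPB-ALL, which match no label of a sample, so no library could be placed in the shSHQ1 or shGFP arm. The comparison of the arms was therefore not made. The 2 lines were compared with all their libraries, and each library is called by its number. Because each line has the same number of libraries from either arm, the spread within a line holds the spread between the arms as well. The labels do not say whether libraries of an arm came from separate cultures, so the p-values measure only the spread between these libraries.

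p53 is kept low by MDM2, a ubiquitin ligase that sends it to the proteasome, and by MDM4, which covers its activation domain. DNA damage, oncogene activity and disturbed ribosome assembly release p53 from this hold, after which it binds response elements near its target genes and raises their transcription. The products of these targets stop the cell cycle, repair DNA, shift metabolism, start apoptosis, or, as MDM2 and PPM1D do, switch p53 off again. SHQ1, the target of the knockdown, is an assembly chaperone of the box H/ACA ribonucleoproteins, which pseudouridylate ribosomal and spliceosomal RNA.

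A full p53 response element consists of a pair of decamer half-sites. The promoter windows of RefSeq (GRCh38.p14, 300 bases each, 250 before and 50 after an annotated start) were searched for the consensus with no spacer and at most 2 mismatches over its 20 bases. The consensus is its own reverse complement, so that 1 search covered both strands. Of the 33 genes, 26 had at least 1 window, and RRM2B, PHLDA3, TNFRSF10B, FBXO22, GADD45A, TP53INP1 and CMBL had none. The sequence was found for 4 of the 26 genes (15.4%), against 0.82% of the 27305 genes with a window and 0.649% of all 35116 windows. The 4 stretches are shown because they stand near annotated starts of genes described below. The matching 20 bases are in capitals, with 5 flanking bases on each side, on the plus strand.
MDM2, chr12:68808923-68808942, 2 mismatches: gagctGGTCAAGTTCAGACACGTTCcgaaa
FAS, chr10:88991309-88991328, 2 mismatches: ctcctGGACAAGCCCTGACAAGCCAagcca
AEN, chr15:88621306-88621325, 2 mismatches: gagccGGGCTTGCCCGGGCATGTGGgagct
DDB2, chr11:47214969-47214988, 1 mismatch: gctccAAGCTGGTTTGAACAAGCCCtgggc
Positions count from the annotated start of the window. The first capital stood at -94 for MDM2, -122 for FAS, -34 for AEN and -5 for DDB2. The DDB2 stretch runs across that start into the transcript. A gene can have several annotated starts, and each stretch lies inside the counted span of its gene, downstream of the first base of that span. A match describes these letters and not a bound site, and a window without a match says only that these letters are not in it.

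Totals ran from 36792076 to 42842791 counts per library in HPB-ALL and from 22884785 to 36098045 in KOPTK1. All 10 T-lineage markers reached 1 RPKM (CPM, counts scaled to an equal library total, divided by the exon length in kilobases), with summed levels of 935 to 978 RPKM in HPB-ALL and 937 to 982 RPKM in KOPTK1. Of the B-lineage markers, 3 of 6 reached 1 RPKM in some library, with sums of 42.5 to 47.9 RPKM in HPB-ALL and 7.55 to 26.5 RPKM in KOPTK1, most of it CD79A. PAX5 reached 0.0342 RPKM at most. Sums of the other lists were under 3 RPKM in every library, with 0 of 6 myeloid, 1 of 5 erythroid, 0 of 5 epithelial and 2 of 5 fibroblast markers reaching 1 RPKM, and no listed marker was at 0 in all 12 libraries.

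The KOPTK1 libraries did not form 1 group. The first principal component, with 84.9% of the variance of log2 CPM, placed libraries 1, 2 and 3 at -0.138 to -0.139, libraries 4, 5 and 6 at -0.405 to -0.407, and the HPB-ALL libraries at 0.251 to 0.295. On the second component, with 4.42% of the variance, library 3 stood apart at -0.738, with libraries 1 and 2 at -0.284 and -0.294. To describe the split of the KOPTK1 libraries, 39 genes were taken with at least 50 CPM in every HPB-ALL library. In at least 1 KOPTK1 library they had under 20% of the HPB-ALL mean. Their median level was 53.6 to 54.7% of the HPB-ALL mean in libraries 1, 2 and 3, but 13.5 to 13.8% in libraries 4, 5 and 6. Conversely, 20 genes high in every KOPTK1 library and under 20% of the KOPTK1 mean in HPB-ALL stood at 59.7 to 60.8% in libraries 1, 2 and 3 of their mean in libraries 4, 5 and 6. Whether libraries 1, 2 and 3 hold RNA of HPB-ALL cells was not tested, and every KOPTK1 level, difference and count given below over all 6 libraries rests in part on them. Each difference between the lines is therefore also given without libraries 1, 2 and 3 where its call depends on them, and the plot of differences shows both versions for every gene.

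**Figure D1:**
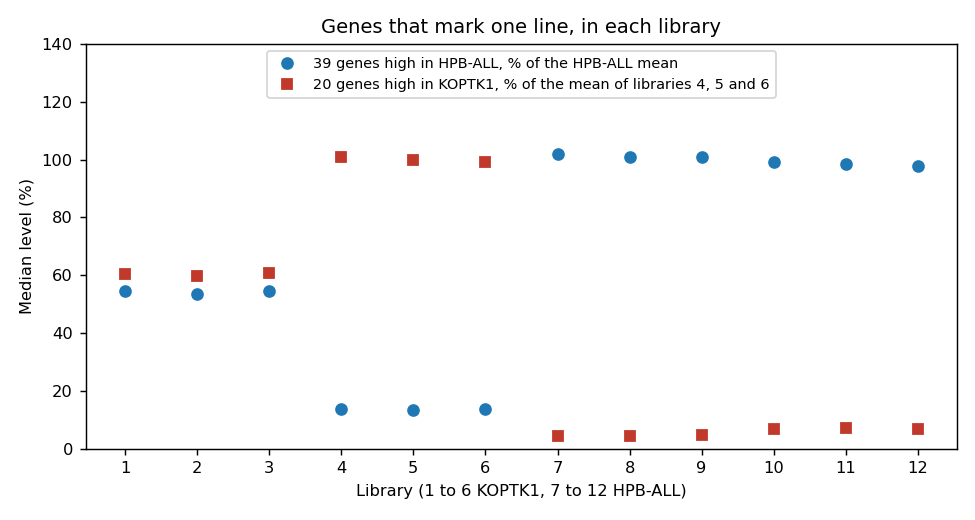
Median level (y axis, %) of genes that mark one line in each library (x axis, library number). Blue circles are 39 genes high in HPB-ALL, as % of the HPB-ALL mean, and red squares 20 genes high in KOPTK1, as % of the mean of libraries 4, 5 and 6. KOPTK1 libraries 1, 2 and 3 lie between the other KOPTK1 libraries and HPB-ALL on both measures.

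SHQ1 (ENSG00000144736.13, chr3:72749279-72848480) had 70.3, 71.8 and 70.9 RPKM in HPB-ALL libraries 7, 8 and 9, and 47.6, 46.4 and 49.1 RPKM in libraries 10, 11 and 12. In KOPTK1 it had 45.7, 44.1 and 46.4 RPKM in libraries 1, 2 and 3, and 41.9, 41.8 and 39.3 RPKM in libraries 4, 5 and 6. The values of either line thus fell into separate ranges, which lay closer together in KOPTK1, and the highest KOPTK1 value lay just above the lowest HPB-ALL value. No arm was read from these values.

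Of the 33 genes, 30 had enough counts to be tested between the lines, and GDF15, SPATA18 and CMBL did not. With an edgeR quasi-likelihood test over 27834 genes, 28 of the 30 were higher in KOPTK1 at an adjusted p under 0.05, 1 was lower (FBXO22) and 1 was not called (CCNG1). Over all genes tested 33.2% were called higher in KOPTK1 and 30.6% lower. The 33 genes were chosen with earlier results of these data known, so their count holds for this list. In the further list of 19 p53 targets given below, 7 were higher and 9 lower. The median log2 difference (KOPTK1 minus HPB-ALL, as for every difference given here) was 0.78 for the 30 genes and 0.03 for all genes, which ranged from -2.91 to 8.53. A difference of at least 2-fold in favour of KOPTK1 was called for 13 of the 30, against 9.91% of all genes. For 26 of the 30 every KOPTK1 library lay above every HPB-ALL library, against 22.7% of all genes. These counts include PLK2 and EDA2R, which passed the filter on low counts only through KOPTK1 and so had to differ. Leaving them out, 26 of 28 genes were called higher and 1 lower, with a median log2 difference of 0.70. Without KOPTK1 libraries 1, 2 and 3, 29 of 31 tested genes were called higher and 1 lower. That count includes PLK2 and EDA2R again, and CMBL, which had at most 8 counts in any HPB-ALL library and entered only through KOPTK1. The share over all genes is not given for this refit. The line cannot be told apart from whatever else differed between the 2 sets of libraries, and in bulk RNA more RNA per cell and more cells expressing a gene cannot be told apart.

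**Figure D2:**
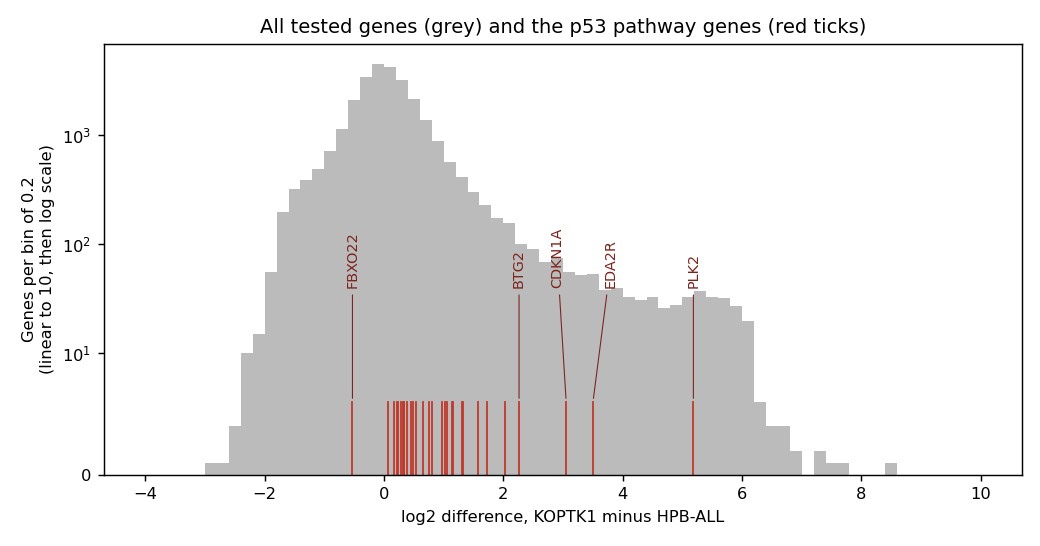
Histogram of the log2 difference between the lines (x axis, KOPTK1 minus HPB-ALL) over all 27834 genes tested, in genes per bin (y axis, linear to 10, then logarithmic). Red ticks mark the 30 tested p53 pathway genes, of which FBXO22 alone lies below 0, and 5 are named.

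**Figure D3:**
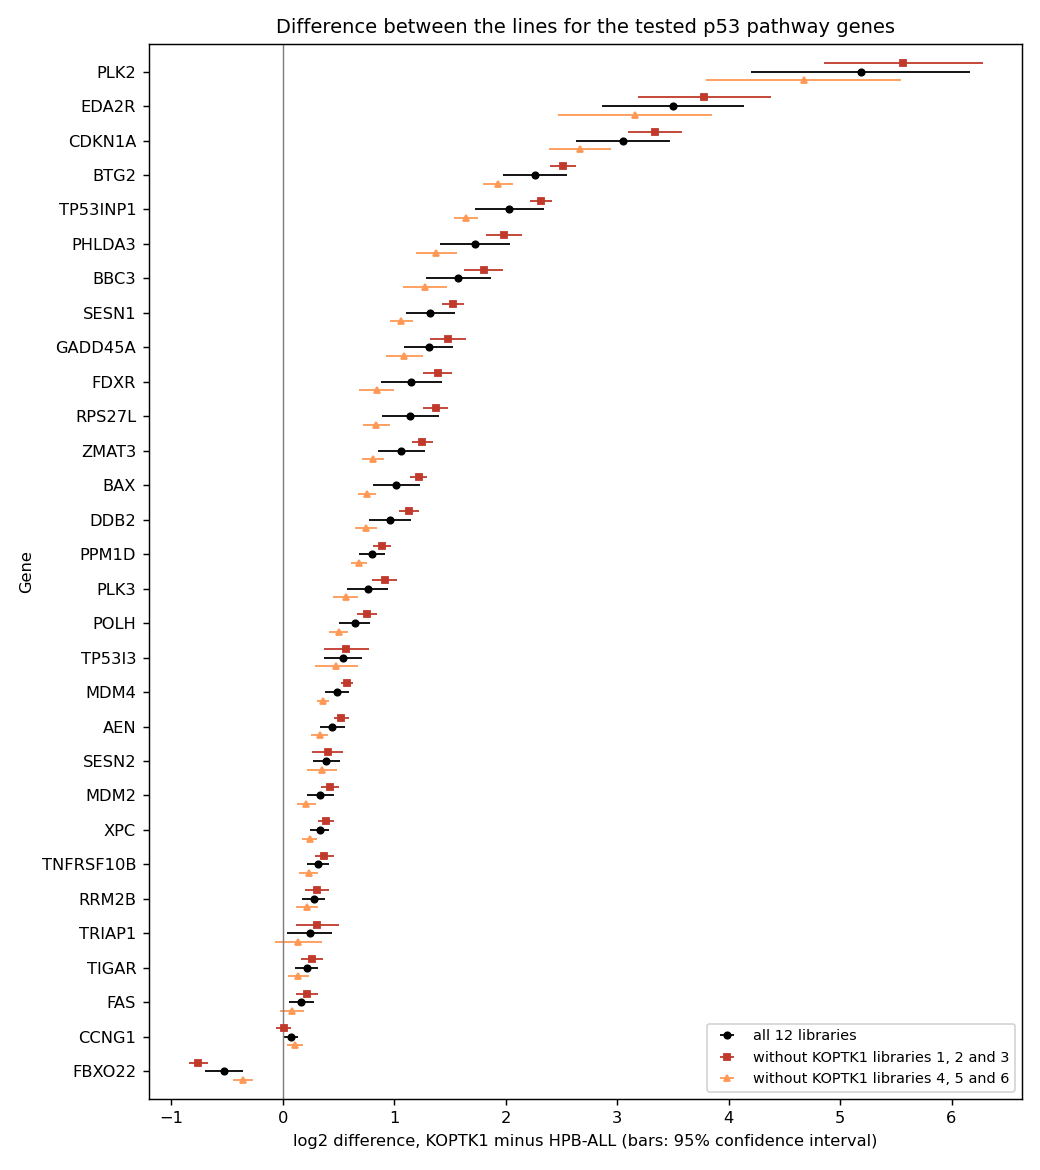
Log2 difference (x axis, KOPTK1 minus HPB-ALL) of the 30 tested genes (y axis), with bars for the 95% confidence interval of the fit. Black circles use all 12 libraries, red squares leave out KOPTK1 libraries 1, 2 and 3, and orange triangles leave out libraries 4, 5 and 6. The difference was larger without libraries 1, 2 and 3 for every gene but CCNG1.

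Of the genes that halt the cell cycle and growth, 5 of 6 were higher in KOPTK1 (median log2 difference 1.79), against 33.2% of all genes. Without PLK2, which passed the filter only through KOPTK1, 4 of 5 were higher, with a median of 1.31. CDKN1A (ENSG00000124762.13, chr6:36676460-36687339) encodes p21, the inhibitor of cyclin-dependent kinases through which p53 stops cells in G1. It had 1.13, 1.08, 1.13, 1.81, 1.70 and 1.84 RPKM in HPB-ALL libraries 7 to 12, against 8.92, 8.76, 9.99, 15.6, 14.5 and 14.4 RPKM in KOPTK1 libraries 1 to 6. The lowest KOPTK1 library was thus well above the highest HPB-ALL library, and both lines had 3 lower and 3 higher libraries. The log2 difference was 3.05 ± 0.20 (SE, n = 6 libraries per line), an 8.30-fold higher level (adjusted p = 4.2e-08). Without libraries 1, 2 and 3 it was 3.34 ± 0.12 (SE), or 10.1-fold.

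PLK2 (ENSG00000145632.14, chr5:58453982-58460260), a polo-like kinase of the stress response, was barely detected in HPB-ALL. It had 0, 4, 0, 12, 13 and 4 counts in libraries 7 to 12, and 111, 124, 135, 154, 204 and 138 counts in KOPTK1 libraries 1 to 6. Summed over a line, 33 counts in HPB-ALL stood against 866 in KOPTK1, a 36.0-fold ratio of CPM (exact 95% interval from 25.4 to 52.6, counting error only). In KOPTK1 its level was 1.08, 1.24, 1.26, 2.01, 2.66 and 2.04 RPKM, low beside its relative PLK3. PLK3 had 6.89 to 8.14 RPKM (median 7.38) in HPB-ALL and 10.5 to 14.6 RPKM (median 12.7) in KOPTK1, with a log2 difference of 0.76 ± 0.08 (SE, adjusted p = 4.3e-06).

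BTG2 (ENSG00000159388.5, chr1:203305536-203309602), an antiproliferative gene that acts with the CCR4-NOT deadenylase, had 3.38, 3.61, 3.91, 4.26, 3.81 and 4.07 RPKM in HPB-ALL libraries 7 to 12. In KOPTK1 libraries 1 to 6 it had 15.2, 13.5, 15.4, 22.6, 21.6 and 22.3 RPKM. All KOPTK1 libraries were above all HPB-ALL libraries, with a log2 difference of 2.26 ± 0.13 (SE, adjusted p = 2.4e-08). GADD45A, a stress sensor that binds PCNA and p21, had 3.11 to 3.92 RPKM (median 3.57) in HPB-ALL and 7.28 to 10.5 RPKM (median 8.89) in KOPTK1, with a log2 difference of 1.31 ± 0.10 (SE, adjusted p = 1.9e-07). CCNG1, which encodes cyclin G1, a partner of protein phosphatase 2A, did not pass. It had the highest level of the 33 genes in HPB-ALL, 32.4 to 33.7 RPKM (median 33.4), and 33.4 to 37.5 RPKM (median 34.2) in KOPTK1. Its log2 difference was 0.07 (95% interval from 0.01 to 0.14, adjusted p = 0.056). Without libraries 1, 2 and 3 this was 0.01 (adjusted p = 0.82), and without libraries 4, 5 and 6 it was 0.11 (adjusted p = 0.012). It was also called without KOPTK1 library 5 alone (adjusted p = 0.033).

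All 3 genes that act back on p53 were higher in KOPTK1 (median log2 difference 0.49), against 33.2% of all genes. MDM2 (ENSG00000135679.22, chr12:68808176-68850686), the gene of the first stretch shown above, had 24.5, 24.2, 24.1, 22.1, 21.9 and 23.1 RPKM in HPB-ALL libraries 7 to 12. In KOPTK1 libraries 1 to 6 it had 26.9, 27.8, 26.8, 31.7, 31.4 and 32.1 RPKM. The lines did not overlap, but the log2 difference was only 0.34 ± 0.06 (SE, adjusted p = 0.00015). Of the MDM2 exon bases 9.68% were shared with other annotated genes. MDM4 (ENSG00000198625.12, chr1:204516379-204558120), the partner of MDM2, had 17.5, 17.3, 17.4, 17.7, 18.1 and 18.6 RPKM in HPB-ALL and 23.2, 22.8, 22.9, 26.5, 27.1 and 27.0 RPKM in KOPTK1, in the same order of libraries. Its log2 difference was 0.49 ± 0.05 (SE, adjusted p = 2.2e-06). These are levels of all MDM4 transcripts together, since exons were not counted apart. PPM1D, the phosphatase WIP1 that reverses DNA damage signalling to p53, had a median of 10.4 RPKM in HPB-ALL and of 18.2 RPKM in KOPTK1, with a log2 difference of 0.81 ± 0.05 (SE, adjusted p = 6.1e-08).

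**Figure D4:**
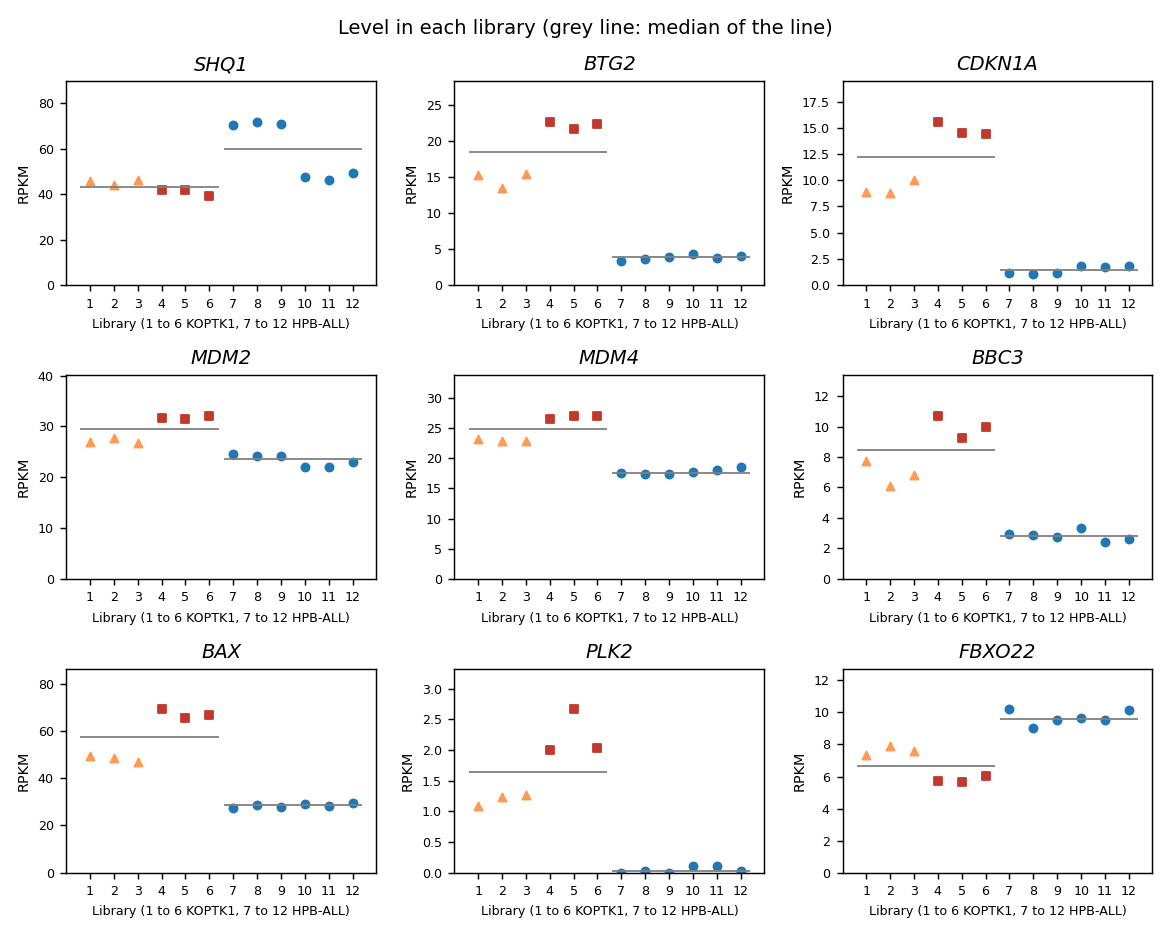
Level (y axis, RPKM, from 0) of 9 genes in each library (x axis, library number), with a grey line at the median of each line. Orange triangles are KOPTK1 libraries 1, 2 and 3, red squares KOPTK1 libraries 4, 5 and 6, and blue circles HPB-ALL. CDKN1A has a median of 1.42 RPKM in HPB-ALL and 12.2 RPKM in KOPTK1, whereas MDM2 has 23.6 and 29.6 RPKM.

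All 10 genes of apoptosis and survival were higher in KOPTK1 (median log2 difference 0.78), against 33.2% of all genes. Without EDA2R, which passed the filter only through KOPTK1, 9 of 9 were higher, with a median of 0.54. The 3 largest differences were in EDA2R, PHLDA3 and BBC3. EDA2R (ENSG00000131080.14, chrX:66595637-66639298), a TNF receptor family member, had 2, 7, 4, 6, 7 and 8 counts in HPB-ALL libraries 7 to 12. In KOPTK1 libraries 1 to 6 it had 48, 52, 32, 41, 55 and 51 counts. The sums of 34 and 279 counts gave an 11.2-fold ratio of CPM (exact 95% interval from 7.86 to 16.6, counting error only), at a level of at most 0.623 RPKM in any library. PHLDA3 (ENSG00000174307.6, chr1:201464383-201469237), which represses AKT, had 2.27, 3.05, 2.99, 3.10, 3.23 and 3.04 RPKM in HPB-ALL and 8.38, 7.76, 6.93, 12.1, 11.3 and 12.1 RPKM in KOPTK1. Its lines stood well apart, with a log2 difference of 1.72 ± 0.15 (SE, adjusted p = 3.9e-07), although 22.2% of its exon bases were shared with another annotated gene.

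BBC3 (ENSG00000105327.17, chr19:47220824-47232766) encodes PUMA, a BH3-only activator of apoptosis. It had 2.91, 2.89, 2.78, 3.32, 2.44 and 2.59 RPKM in HPB-ALL libraries 7 to 12, and 7.74, 6.08, 6.80, 10.7, 9.25 and 9.96 RPKM in KOPTK1 libraries 1 to 6. Every KOPTK1 library was above every HPB-ALL library, with a log2 difference of 1.57 ± 0.14 (SE, adjusted p = 4.6e-07). BAX, the pore-forming effector that PUMA helps to activate, had the highest median of the 33 genes in KOPTK1, with 46.8 to 69.1 RPKM (median 57.4) against 27.2 to 29.6 RPKM (median 28.5) in HPB-ALL. Its log2 difference was 1.02 ± 0.10 (SE, adjusted p = 1.2e-06). ZMAT3, an RNA-binding zinc finger protein, had 8.23 to 9.90 RPKM (median 9.01) in HPB-ALL and 15.5 to 22.6 RPKM (median 18.8) in KOPTK1, with a log2 difference of 1.06 ± 0.10 (SE, adjusted p = 8.6e-07).

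The other apoptosis genes were closer between the lines. TP53I3, a quinone oxidoreductase linked to oxidative stress, had 2.03 to 2.69 RPKM in HPB-ALL and 3.21 to 4.03 RPKM in KOPTK1, with a log2 difference of 0.54 ± 0.08 (SE, adjusted p = 5.1e-05). AEN, an apoptosis-enhancing nuclease, had medians of 22.1 and 30.2 RPKM and a log2 difference of 0.45 ± 0.05 (SE, adjusted p = 6.0e-06). The death receptor gene TNFRSF10B had medians of 10.4 and 13.0 RPKM and a log2 difference of 0.32 ± 0.05 (SE, adjusted p = 3.8e-05). For these 3 genes every KOPTK1 library lay above every HPB-ALL library, as it did for 22.7% of all genes. The lines did overlap for FAS, the other death receptor, with 12.5 to 14.1 RPKM in HPB-ALL and 13.4 to 16.0 RPKM in KOPTK1, and for TRIAP1, an inhibitor of apoptosis, with 15.2 to 20.7 and 18.1 to 23.2 RPKM. Their log2 differences were 0.17 ± 0.05 for FAS (SE, adjusted p = 0.013) and 0.24 ± 0.09 for TRIAP1 (SE, adjusted p = 0.034). Neither passed without libraries 4, 5 and 6 (adjusted p = 0.20 and 0.26), and TRIAP1 also missed the threshold without any 1 of HPB-ALL libraries 10, 11 and 12 or KOPTK1 libraries 3, 4, 5 and 6 (adjusted p from 0.052 to 0.083).

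All 4 genes of DNA repair and nucleotide supply were higher in KOPTK1 (median log2 difference 0.49), against 33.2% of all genes. For all 4, every KOPTK1 library lay above every HPB-ALL library, as it did for 22.7% of all genes. DDB2, the damage sensor of nucleotide excision repair and the gene with the closest match to the response element above, had 25.4 to 30.2 RPKM (median 29.3) in HPB-ALL and 46.1 to 64.0 RPKM (median 56.1) in KOPTK1. Its log2 difference was 0.97 ± 0.09 (SE, adjusted p = 7.1e-07). POLH, the translesion polymerase eta, had medians of 16.3 and 25.2 RPKM and a log2 difference of 0.65 ± 0.07 (SE, adjusted p = 1.7e-06). The repair factor XPC differed by 0.33 ± 0.04 on the log2 scale (SE, adjusted p = 1.2e-05), from medians of 17.1 and 21.2 RPKM, and had 24.9% of its exon bases in common with 3 genes of the opposite strand. RRM2B, the p53-inducible subunit of ribonucleotide reductase, differed by 0.28 ± 0.05 (SE, adjusted p = 0.0002), from medians of 8.02 and 9.71 RPKM.

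Of the 7 genes of metabolism and stress, 5 were tested. All 5 were higher in KOPTK1 (median log2 difference 1.15), against 33.2% of all genes. TP53INP1 (ENSG00000164938.13), which acts in autophagy and apoptosis, had 4.69, 4.64, 4.47, 5.18, 5.03 and 5.52 RPKM in HPB-ALL libraries 7 to 12, and 16.0, 15.3, 15.1, 24.9, 23.9 and 25.8 RPKM in KOPTK1 libraries 1 to 6. The lines were far apart, with a log2 difference of 2.03 ± 0.14 (SE, adjusted p = 8.7e-08). Both sestrins, which restrain mTORC1, were higher, and the difference between them was not tested. SESN1 had 3.82 to 4.16 RPKM (median 3.93) in HPB-ALL and 7.82 to 11.6 RPKM (median 10.1) in KOPTK1, with a log2 difference of 1.33 ± 0.10 (SE, adjusted p = 1.6e-07). SESN2 had medians of 4.29 and 5.59 RPKM and a log2 difference of 0.39 ± 0.06 (SE, adjusted p = 5.0e-05). FDXR, the mitochondrial ferredoxin reductase, had 7.97 to 10.8 RPKM (median 9.95) in HPB-ALL and 16.6 to 26.6 RPKM (median 22.4) in KOPTK1, with a log2 difference of 1.15 ± 0.13 (SE, adjusted p = 3.8e-06). TIGAR, a fructose bisphosphatase that slows glycolysis, had medians of 7.27 and 8.50 RPKM and a log2 difference of 0.22 ± 0.05 (SE, adjusted p = 0.0014).

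FBXO22 (ENSG00000167196.13, chr15:75903859-75942510), an F-box protein of a ubiquitin ligase, was the single tested gene of the 30 that was lower in KOPTK1. It had 10.2, 9.03, 9.53, 9.68, 9.51 and 10.2 RPKM in HPB-ALL libraries 7 to 12, and 7.35, 7.88, 7.58, 5.72, 5.69 and 6.02 RPKM in KOPTK1 libraries 1 to 6. All HPB-ALL libraries were above all KOPTK1 libraries, which held for 20.9% of all genes tested. The log2 difference was -0.53 ± 0.08 (SE, adjusted p = 6.3e-05). RPS27L, a paralog of the ribosomal protein RPS27, had 3.39 to 4.25 RPKM (median 3.76) in HPB-ALL and 6.36 to 10.5 RPKM (median 8.38) in KOPTK1, with a log2 difference of 1.14 ± 0.12 (SE, adjusted p = 2.4e-06). Reads that RPS27L shares with its paralog could be split by the counting, so its level is less certain.

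The 3 untested genes were at the limit of detection. GDF15, a secreted stress cytokine, had 1 to 9 counts per library in HPB-ALL and 3.5 to 21 in KOPTK1. CMBL, a hydrolase, had 0 counts in 3 HPB-ALL libraries and at most 8 in the others, against 6 to 17 counts in KOPTK1. SPATA18, which acts in the removal of damaged mitochondria, had 0 to 3 counts in HPB-ALL and, in KOPTK1, 0 to 3 counts in 5 libraries and 17 in library 3. Summed over a line, the KOPTK1 to HPB-ALL ratio of CPM was 3.80 for GDF15 (exact 95% interval from 2.39 to 6.20), 8.57 for CMBL (4.63 to 17.3) and 5.09 for SPATA18 (2.15 to 13.9, with 17 of its 26 KOPTK1 counts in library 3). These intervals cover counting error only and not the spread between libraries.

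**Figure D5:**
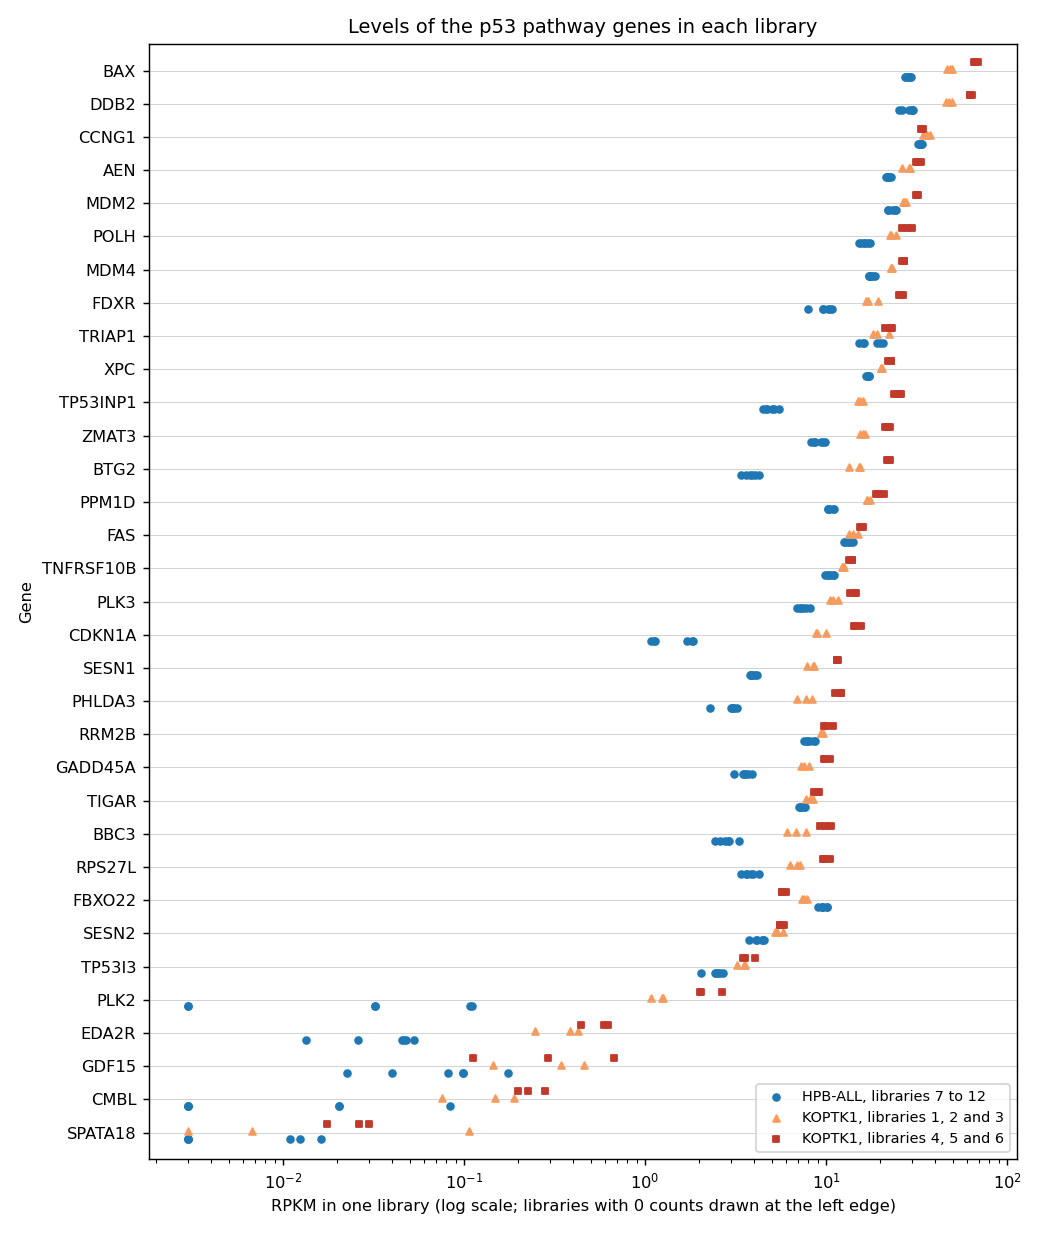
Level (x axis, RPKM, log scale) of the 33 genes (y axis) in each of the 12 libraries, with 0 counts drawn at the left edge. Blue circles are HPB-ALL, orange triangles KOPTK1 libraries 1, 2 and 3, and red squares KOPTK1 libraries 4, 5 and 6. A median of at least 1 RPKM was reached by 28 genes in HPB-ALL and by 29 in KOPTK1.

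Within a line the genes differed in how far the libraries spread. In HPB-ALL the highest CDKN1A level was 1.70 times the lowest, more than for 84.2% of the 22443 genes with a mean of at least 1 RPKM, whereas the median gene had 1.20. CCNG1 and XPC were the steadiest, at 1.04 and 1.03. In KOPTK1 the ratio was 2.47 for PLK2, 1.78 for CDKN1A, 1.76 for BBC3 and 1.74 for PHLDA3, against 1.38 for the median of 23092 genes, and CCNG1 was again the steadiest at 1.12. For 25 of the 30 tested genes (83.3%), KOPTK1 libraries 1, 2 and 3 all lay between the HPB-ALL libraries and libraries 4, 5 and 6. This was so for 32.1% of all genes tested and for 50.3% of the 17761 genes called between the lines. The exceptions were FAS, TP53I3, SESN2, CCNG1 and TRIAP1. Such a place is possible only where the lines do not overlap. All KOPTK1 libraries lay above HPB-ALL for 26 of the 30 genes and below for 1, against 22.7% and 20.9% of all genes. The 25 include PLK2 and EDA2R, which passed the filter only through KOPTK1. The genes whose log2 CPM followed CDKN1A most closely over the 6 libraries of HPB-ALL were HERC1 (Pearson r = 0.9993), EML5 (0.9957), WDR76 and MCM6 (both 0.9950) and ATP10A (0.9945), out of 16662 named genes. In KOPTK1 they were ZNF485 (0.9997), NRSN2 (0.9988), ZNF302 (0.9986), RPL12P7 (0.9980) and PIAS1 (0.9979), out of 17076. These are descriptions over 6 libraries each that fall into separate ranges of CDKN1A, and no gene is in both lists.

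Of 15 regulators upstream of p53, 6 were higher in KOPTK1 and 3 lower, shares not far from the 33.2% and 30.6% over all genes, with a median log2 difference of 0.03. The 6 include CDKN2A, which passed the filter only through KOPTK1 and so had to differ, and without it 5 of 14 were higher. CDKN2A, which encodes the MDM2 inhibitor ARF and the kinase inhibitor p16, had 37 counts in all HPB-ALL libraries together and 1667 in KOPTK1, a 61.8-fold ratio of CPM (exact 95% interval from 44.6 to 88.0, counting error only). Its level was 2.19 to 4.26 RPKM in KOPTK1. The acetyltransferase gene CREBBP and the kinase gene HIPK2 were higher in KOPTK1, by 0.48 ± 0.05 and 0.57 ± 0.05 on the log2 scale (SE, adjusted p = 2.4e-06 and 4.3e-07). The related acetyltransferase gene EP300 was lower, by -0.20 ± 0.04 (SE, adjusted p = 0.00017). CHEK2, a kinase that phosphorylates p53, was also lower, by -0.66 ± 0.11 (SE, adjusted p = 0.00012), as was USP7, the deubiquitinase of MDM2 and p53, by -0.44 ± 0.08 (SE, adjusted p = 0.00027). The ribosomal proteins RPL5 and RPL11, which bind MDM2 when ribosome assembly fails, were not called (log2 differences of 0.03 and 0.00, adjusted p = 0.31 and 1).

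In a further list of 19 p53 targets, 7 were higher in KOPTK1 and 9 lower (against 33.2% and 30.6% of all genes), with a median log2 difference of -0.12. The 9 include PERP, which passed the filter only through HPB-ALL. Among those higher were DRAM1, an autophagy regulator (0.07 to 0.19 RPKM in HPB-ALL, 1.85 to 3.38 RPKM in KOPTK1), IER5 (log2 difference 1.10 ± 0.10, SE, adjusted p = 6.5e-07) and PMAIP1, which encodes the BH3-only protein NOXA (0.40 ± 0.05, SE, adjusted p = 1.9e-05). Among those lower were TP53I11 (-1.27 ± 0.25, SE, adjusted p = 0.00058) and BID, another BH3-only gene (-0.42 ± 0.06, SE, adjusted p = 7.2e-05). Of 15 cell cycle genes that p21 and the DREAM repressor complex hold down, 9 were lower in KOPTK1 and 2 higher (against 30.6% and 33.2% of all genes), with a median log2 difference of -0.32. The number higher was 1 with DESeq2, with no filter, without KOPTK1 libraries 1, 2 and 3, or without any 1 of HPB-ALL libraries 7, 8, 9 and 12 and KOPTK1 libraries 1 to 5. CCNB1, the mitotic cyclin B1, had 75.1 to 77.3 RPKM in HPB-ALL and 31.8 to 50.1 RPKM in KOPTK1 (log2 difference -0.90 ± 0.11, SE, adjusted p = 1.2e-05). E2F1, a driver of S phase entry, was higher in KOPTK1 (0.69 ± 0.07, SE, adjusted p = 3.0e-06), and CCNA2 was not called (0.00 ± 0.03, SE, adjusted p = 0.95).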

How the data were processed

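Gene counts were made by the authors from the RNA-Seq reads of 12 libraries and deposited as 1 table per line. The submitters' processing notes name hg38, Trimmomatic 0.36, STAR 2.5.4b, Picard 2.18.7, featureCounts 1.6.2 and edgeR 3.22.3, and the gene coordinates are hg38. The deposited values are estimated counts, since part of them carry fractions, and are not normalized. Whether the counting used strand is not given in the sources used here. The authors' own columns of log2 fold change, average log2 CPM, F statistic, p-value and FDR were not used. The 12 library columns are headed by numbers, and the labels tie each table to its line only, so the planned test of shSHQ1 against shGFP was not made. No column of values per library was left out.

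Counts were rounded and the lines compared, 6 against 6 libraries, with edgeR 4.0.16 in R 4.3.3: filterByExpr (minimum count 10), TMM scaling, the quasi-likelihood F test and Benjamini-Hochberg adjustment over all genes tested. The fit was tested on simulated data. The SE of a log2 difference is its size over the root of F. RPKM was computed with the total count of a library and the exon length in the table. DESeq2 1.42.0 served as an alternative, and other steps used Python 3.11.15. Of the identifiers, 95.8% had an entry in the table of gene names. Each library was counted as 1 sample. No libraries of a line agreed within sampling noise (chi-square per gene of 1.80 to 28.8 over 19621 genes), which does not show that they came from separate cultures. In KOPTK1 the chi-square was 1.80 to 5.62 within libraries 1, 2 and 3 and within libraries 4, 5 and 6. Between these sets it was 23.9 to 28.8, so the 6 KOPTK1 libraries did not spread as 6 unrelated samples. Depth was 22884785 to 42842791 counts per library. Intervals on summed counts are exact (Clopper-Pearson) and cover counting error only.

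The 33 genes and all lists were chosen with earlier results of these data known. Library values are given for the 6 largest differences in each direction, the widest spread within a line, CDKN1A, MDM2, MDM4 and BBC3. Genes like CDKN1A were sought by Pearson correlation among named genes off the Y chromosome. 1 listed gene is not reported here.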

Additional observations from a re-analysis of the deposited data

Results flagged for a closer look

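PHLDA3 had 2.27 RPKM in HPB-ALL library 7, below the 2.99 to 3.23 RPKM of the other 5 HPB-ALL libraries. The gap to its nearest neighbour was 0.749 of the whole range, above Dixon's 95% critical value for 6 samples. It was the 1 flag in 60 groups of 6 libraries, of which chance flags about 1 in 20.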

How the results depend on the processing

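The differences of the 30 genes were set against 569 values under other settings. In 543 cases the direction and the call stayed as reported, 23 lost the call, 3 gained it and none changed sign. Of the 543, 30 came from median centring, which shifted all differences by their median and kept the adjusted p of the main fit. Its calls could therefore not change. The minimum change of 1.5-fold also reused the differences and adjusted p of the main fit. A minimum change of 1.5-fold brought the genes called from 17761 to 8096, those higher in KOPTK1 to 4900 and those lower to 3196, and left 17 p53 pathway genes higher and 0 lower, since small differences are dropped. Leaving out each library in turn gave 16878 to 18345 genes called, 8690 to 9374 higher, 8096 to 8971 lower, 27 to 29 p53 pathway genes higher and 1 lower. With DESeq2 28 were higher and 1 lower. With no filter FAS and TRIAP1 lost their call (adjusted p = 0.15 and 0.12) while GDF15 and CMBL were called (adjusted p = 0.005 and 0.0014). With a mean of at least 1 RPKM, CCNG1 was called (adjusted p = 0.044) and EDA2R was not tested. 2 alternatives were chosen after seeing the data: without KOPTK1 libraries 1, 2 and 3, 29 were higher, CMBL among them, and without libraries 4, 5 and 6, 27 were higher. TMM-adjusted library sizes left the median RPKM over the 30 genes, taken in each library and then at the middle of the 6 libraries, at 8.50 in HPB-ALL and moved it from 14.1 to 14.2 in KOPTK1.

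No paired analysis was possible because the columns carry numbers found in none of the labels. For the same reason the alternatives planned for shSHQ1 against shGFP in each line were not run, and those on the pseudocount were not needed for counts. Depth limits PLK2, EDA2R, GDF15, SPATA18 and CMBL, whose levels rest on few counts in HPB-ALL.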

Other observations

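The numbered libraries could not be placed in an arm, and in HPB-ALL 12 of the 30 tested p53 pathway genes took ranges in libraries 7, 8 and 9 that did not overlap those in libraries 10, 11 and 12, against 19.8% of all genes tested. The other 18, among them BAX, FAS, BTG2, SESN1, BBC3 and GADD45A, overlapped. Values are given for 3 of the 12, chosen after they were seen. TRIAP1 had 19.2, 20.7 and 19.8 RPKM in libraries 7, 8 and 9, and 16.0, 15.2 and 16.1 RPKM in libraries 10, 11 and 12. MDM2 had 24.5, 24.2 and 24.1 RPKM in libraries 7, 8 and 9, and 22.1, 21.9 and 23.1 RPKM in libraries 10, 11 and 12. ZMAT3 had 8.57, 8.65 and 8.23 RPKM in libraries 7, 8 and 9, and 9.90, 9.37 and 9.67 RPKM in libraries 10, 11 and 12. SHQ1 and CDKN1A also took separate ranges in these HPB-ALL libraries, and no arm was read from this. These are values of single libraries, and no test was made between them.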
